A study of Mus musculus with 12 samples.

Results

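The genes described here are adrenergic receptors and adenylyl cyclases, the first steps by which noradrenaline acts on brown fat. They were chosen by name, as 4 receptor genes (Adrb1, Adrb3, Adra1a and Adra2a) and 5 cyclase genes (Adcy3, Adcy5, Adcy6, Adcy9 and Adcy10), and all 9 were found among the 61210 genes of the table. Their shares were computed within all measured genes of each family, which were 6 receptors and 10 cyclases. The tissue was labelled iBAT, interscapular brown adipose tissue, and came from C57BL/6N mice without a transgene. Total RNA was sequenced in 12 libraries, 3 for each of 4 groups, all at 20 weeks of age. The NCD groups stayed on control chow, and the HFD groups received high-fat diet for 12 weeks, from 8 weeks of age. Within each diet, 1 group stayed at room temperature (22 °C) and 1 group spent 24 h at 4 °C. No group was kept at thermoneutrality or received a receptor agonist, so the cold groups are compared with mice at 22 °C.

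In brown adipocytes, noradrenaline from sympathetic nerves binds beta receptors that couple to the stimulatory G protein, which switches on adenylyl cyclases in the membrane. The cyclic AMP they make activates protein kinase A, and lipolysis and the transcription of thermogenic genes follow. Alpha1 receptors act by calcium, and alpha2 receptors lower cyclic AMP by the inhibitory G protein. Adcy10 encodes the soluble cyclase, which is switched on by bicarbonate and calcium and not by G proteins.

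Library totals ran from 15136861 to 46740702 estimated counts. By the labels, replicates 1 and 2 of each group form a first batch (8 libraries) and replicate 3 a second, deeper one (4 libraries, at least 34067515 counts each). Of the 9 genes, 8 passed the filter on low counts and were tested among 16737 genes. Adra2a did not pass, with 2 to 14 counts per library. Levels are given as CPM, library-size scaled counts with TMM factors, and as mean ± SD with n = 3 per group. Fold changes are on the log2 scale with the standard error (SE) of the fit. Adjusted p-values come from edgeR quasi-likelihood fits, corrected by the method of Benjamini and Hochberg over all genes tested. To be called in a contrast of groups, a gene needed a log2 fold change beyond 0.5 in either direction together with an adjusted p below 0.05, and in the 4-group and interaction tests the adjusted p alone decided. The summed level of 8 brown adipocyte markers was 5510 to 6808 CPM on NCD at 22 °C, 19058 to 22284 on NCD at 4 °C, 7438 to 9543 on HFD at 22 °C and 15016 to 18215 on HFD at 4 °C. Ucp1 made up most of each sum, and the other markers did not all rise. Ebf2 was at 122, 95.6 and 95.1 CPM on NCD at 22 °C and at 87.1, 69.8 and 72.8 CPM on NCD at 4 °C. Prdm16 and Zic1 overlapped between temperatures on both diets, and Cidea on NCD. Ucp1, the uncoupling protein that makes heat, rose in the cold by 1.44 (SE 0.12) over both diets (adjusted p = 3.5e-05), and Dio2, a thyroid hormone activating enzyme, by 2.74 (SE 0.20, adjusted p = 1.8e-05). Elovl3, a fatty acid elongase, rose by 2.72 (SE 0.18, adjusted p = 9.7e-06) and the coactivator Ppargc1a by 1.75 (SE 0.34, adjusted p = 0.0045). The 10 skeletal muscle markers summed to 2677 to 16395 CPM at 22 °C and 1149 to 8846 CPM at 4 °C on NCD. On HFD they summed to 1866 to 17350 CPM at 22 °C and 559 to 5199 CPM at 4 °C. These ranges overlapped between groups, with both ends lower in the cold on each diet.

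Across the 4 groups, 2 of the 8 tested genes differed, Adcy3 (adjusted p = 9.3e-06) and Adcy10 (adjusted p = 0.00045), where 24.3% of all genes tested did. Adcy3 rose 6.35-fold in the cold on NCD and 6.95-fold on HFD. Adcy10 fell with HFD, 3.37-fold over both temperatures, and was lowest on HFD in the cold. None of the tested receptors and none of the cyclases Adcy5, Adcy6 and Adcy9 was called in any contrast. In all, 1 of the 8 genes was called for cold on NCD, beside 6.27% of all genes, and 2 for cold on HFD, beside 9.58%. For HFD, 0 were called at 22 °C, beside 2.09% of all genes, and 1 at 4 °C, beside 4.75%. For cold over both diets 1 was called, beside 12.7%, and for HFD over both temperatures 1, beside 7.8%.

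**Figure D1:**
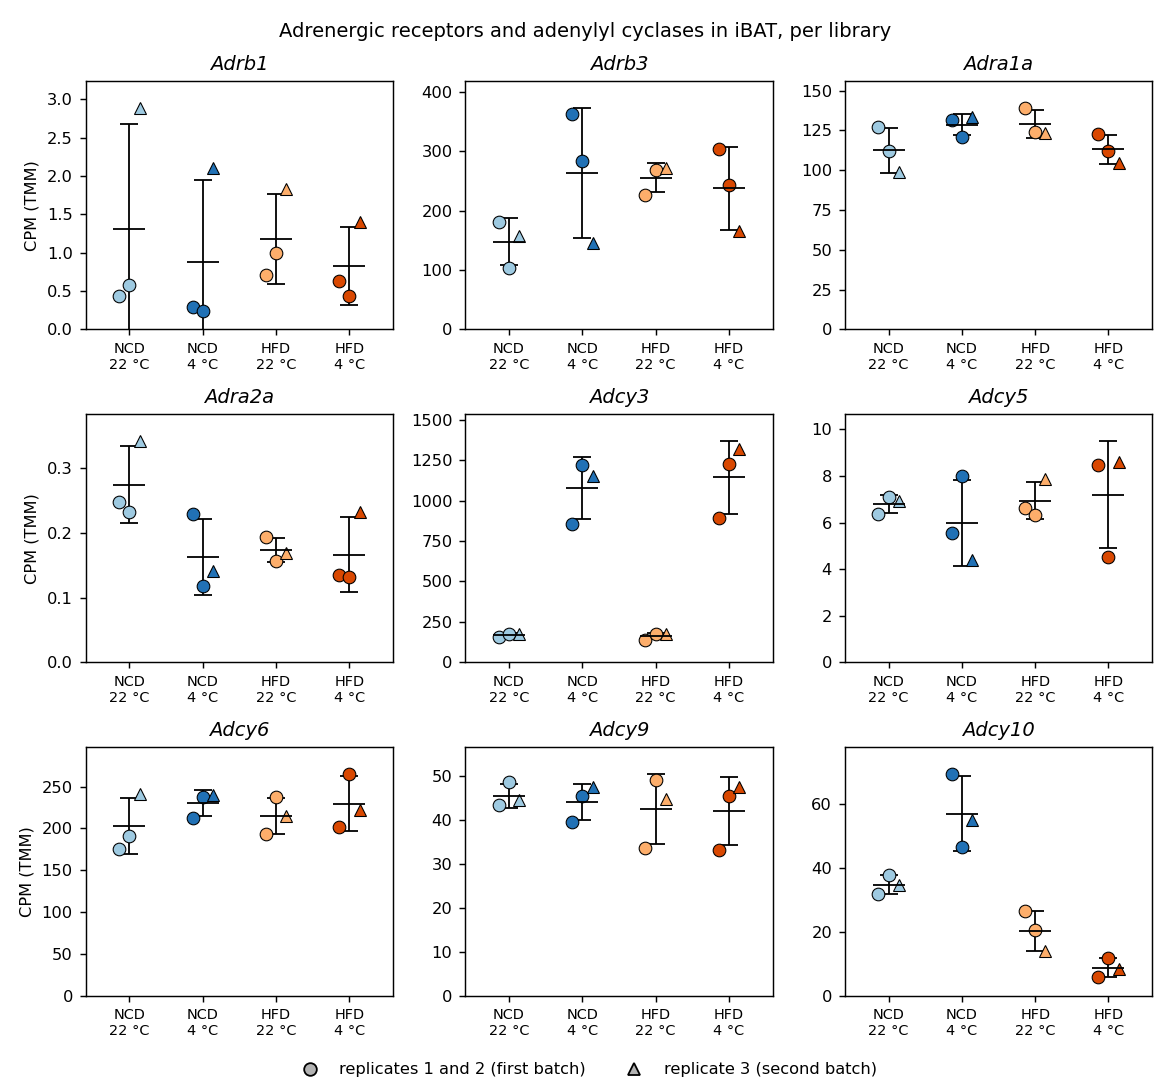
TMM-scaled CPM of the 9 genes in the 4 groups. Each symbol is 1 library, circles are the first batch and triangles the second, the long bars are group means and the whiskers the SD (n = 3, each panel with its own axis from 0). Adcy3 stood at 141 to 179 CPM at 22 °C and at 858 to 1320 CPM at 4 °C, the 4 groups of Adcy10 did not overlap, and the triangles of Adrb1 lay above the circles in every group.

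Adcy3 encodes a membrane cyclase that the stimulatory G protein activates and that is also known from olfactory neurons. The gene (QNCMUSG00010553 in the table) lies at chr12:4133103-4213525 on the plus strand of GRCm38, and its longest coding transcript has 22 exons. On NCD at 22 °C its levels were 156, 179 and 175 CPM in replicates 1 to 3, and on HFD at 22 °C they were 141, 178 and 174 CPM. At 4 °C they were 858, 1221 and 1152 CPM on NCD and 890, 1223 and 1320 CPM on HFD. Every library from the cold was thus well above every library from 22 °C, and the groups on the 2 diets overlapped at both temperatures. Cold raised Adcy3 by 2.67 on the log2 scale on NCD (SE 0.19, 6.35-fold, adjusted p = 5.4e-05) and by 2.80 on HFD (SE 0.19, 6.95-fold, adjusted p = 7.3e-05). Averaged over the diets the rise was 2.73 (SE 0.13, 95% confidence interval 2.44 to 3.02, adjusted p = 1.9e-06). Of all genes tested, 3.72% were called higher in the cold on NCD and 5.39% on HFD. The difference of Adcy3 with HFD was 0.02 (SE 0.12, interval -0.25 to 0.29, adjusted p = 0.93), and the effect of cold differed between the diets by 0.13 (SE 0.25, interval -0.41 to 0.67, adjusted p = 0.95). In the first batch alone the cold contrasts of Adcy3 were 2.64 on NCD (adjusted p = 0.013) and 2.72 on HFD (adjusted p = 0.018), and the second batch holds 1 library per group, with 175 against 1152 CPM and 174 against 1320 CPM. Exons of Adcy3 overlap those of Cenpo, a centromere protein gene on the opposite strand, over 1380 bases. Cenpo was low and fell in the cold, by 0.93 (SE 0.10, adjusted p = 0.00015), and whether strand was used in counting is not given in the sources used here. In bulk tissue, a change in the share of a cell type and a change in RNA per cell cannot be told apart, here and in what follows.

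The promoter windows of Adcy3 and Adcy10 are shown because these were the genes that differed between groups, and that of Adrb1 because it holds a cyclic AMP response motif. Each is 250 bases before a transcription start in RefSeq (GRCm38.p6), 5′ to 3′ on the strand of the gene, with the motif TGACG in capitals where it occurs (either strand was searched, so CGTCA counts too). RefSeq windows were at hand for 6 of the 9 genes, 7 windows in all, and not for Adrb3, Adra1a and Adcy6.
Adcy3 (second start, chr12:4133903-4134152, plus strand): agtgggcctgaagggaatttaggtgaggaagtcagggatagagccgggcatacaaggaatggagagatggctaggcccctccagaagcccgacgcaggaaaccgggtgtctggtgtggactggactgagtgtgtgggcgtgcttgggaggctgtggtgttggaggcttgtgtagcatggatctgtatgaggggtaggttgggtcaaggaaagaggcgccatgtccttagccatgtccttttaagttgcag
Adcy10 (chr1:165484933-165485182, plus strand): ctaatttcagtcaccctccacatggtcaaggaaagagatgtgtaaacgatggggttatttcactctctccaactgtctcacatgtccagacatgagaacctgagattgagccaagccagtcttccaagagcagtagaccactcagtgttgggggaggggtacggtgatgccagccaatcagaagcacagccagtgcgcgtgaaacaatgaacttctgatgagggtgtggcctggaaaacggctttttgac
Adrb1 (chr19:56721867-56722116, plus strand): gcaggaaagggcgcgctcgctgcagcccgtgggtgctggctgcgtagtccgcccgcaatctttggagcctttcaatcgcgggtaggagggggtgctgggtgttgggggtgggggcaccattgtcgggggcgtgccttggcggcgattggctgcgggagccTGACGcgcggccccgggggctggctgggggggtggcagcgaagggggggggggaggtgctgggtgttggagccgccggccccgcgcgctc
The Adcy3 and Adcy10 windows held no TGACG, and that of Adrb1 held 1, whose first letter lies 90 bases before the start. In all, 3 of the 7 windows held the motif (Adrb1, Adra2a and Adcy9), against 17.8% of 32851 windows of this length. By the gene annotation, all 250 bases of the Adra2a window lie within exons of Adra2a. The window of the first Adcy3 start, which is not shown, likewise lies within exons of Adcy3 over all 250 bases. The full palindrome TGACGTCA was in none of the 7 and in 1.55% of all windows. The Adrb1 window has 74.0% G and C, and that of Adcy3 shown here 56.0%.

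Adcy10 (QNCMUSG00002928, chr1:165485183-165576774, plus strand, 34 exons in the longest coding transcript) was the member that differed with diet. Its levels were 31.7, 37.6 and 34.5 CPM on NCD at 22 °C and 69.4, 46.4 and 55.0 CPM on NCD at 4 °C. On HFD they were 26.4, 20.4 and 13.8 CPM at 22 °C and 5.76, 11.7 and 8.44 CPM at 4 °C. The 4 groups thus followed each other without overlap, from NCD at 4 °C down through NCD at 22 °C and HFD at 22 °C to HFD at 4 °C. Of all genes tested, 0.866% had 4 groups that did not overlap in any order. HFD lowered Adcy10 in the cold by 2.72 on the log2 scale, 6.59-fold (SE 0.28, adjusted p = 0.00084), where 2.69% of all genes were called lower. At 22 °C the difference was -0.78 (SE 0.27, adjusted p = 0.16) and was not called. Averaged over both temperatures, Adcy10 fell by 1.75 with HFD (SE 0.19, 95% confidence interval -2.18 to -1.33, adjusted p = 0.00039), where 3.55% of all genes were called lower. In the first batch alone the difference of Adcy10 with HFD was -0.57 at 22 °C (adjusted p = 0.48), -2.73 at 4 °C (adjusted p = 0.041) and -1.65 over both temperatures (adjusted p = 0.019), and the libraries of the second batch went from 34.5 to 13.8 CPM at 22 °C and from 55.0 to 8.44 CPM at 4 °C.

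Cold went with opposite differences of Adcy10 on the 2 diets. On NCD the 3 cold libraries were higher than the 3 at 22 °C, with a difference of 0.72 (SE 0.27, interval 0.13 to 1.30) that was not called (adjusted p = 0.13). On HFD the 3 cold libraries were all lower, and Adcy10 fell by 1.22 (SE 0.27, 2.33-fold, adjusted p = 0.017), where 4.19% of all genes were called lower. This last call was lost without HFD 22 °C replicate 1 (-0.95, adjusted p = 0.063), HFD 4 °C replicate 1 (-0.98, adjusted p = 0.061) or HFD 4 °C replicate 3 (-1.20, adjusted p = 0.057), and in the first batch alone (-1.42, adjusted p = 0.073). The difference between the 2 cold effects was -1.94 (SE 0.38, interval -2.77 to -1.10) with an unadjusted p = 0.00032 and an adjusted p = 0.30 from edgeR, and in the first batch alone it was -2.16. By edgeR 0% of all genes were called for this interaction, and 6.52% of all genes had an unadjusted p under 0.05. DESeq2's likelihood ratio test gave Adcy10 an adjusted p of 0.00053 for the same interaction, and edgeR without the filter on low counts one of 0.0085. Of all genes tested, 0.311% had no overlap on either diet and opposite directions. Averaged over the diets, the difference with cold was -0.25 (SE 0.19, adjusted p = 0.38). The 4 markers of germ cells, where the soluble cyclase is abundant, summed to 0.157 to 0.686 CPM in the 12 libraries.

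The other 3 cyclases were not called. Adcy6, a membrane cyclase that calcium inhibits (QNCMUSG00021068, chr15:98589973-98610076, minus strand), was, like Adcy3, among the leading cyclases at 22 °C. Its levels were 176, 191 and 241 CPM on NCD and 193, 237 and 215 CPM on HFD at 22 °C, and 212, 237 and 240 CPM and 201, 265 and 222 CPM at 4 °C. The 4 groups overlapped, 605 bases of its exons are shared with the antisense gene Gm29331, and the largest of its log2 differences in the 4 contrasts was 0.18 (SE 0.14, adjusted p = 0.53, cold on NCD). Adcy9, a widely expressed membrane cyclase (QNCMUSG00021449, chr16:4287529-4420498, minus strand), ranged from 33.2 to 49.1 CPM over the 12 libraries, with group means between 42.1 ± 7.77 and 45.5 ± 2.77 CPM and a largest log2 difference of 0.098 in either direction, which reached 0.21 without HFD 22 °C replicate 2. That of Adcy6 reached 0.33 without NCD 22 °C replicate 3. Adcy5, which like Adcy6 is inhibited by calcium and is best known from heart and striatum (QNCMUSG00022277, chr16:35154877-35305738, plus strand), stood at 4.38 to 8.60 CPM, with group means of 5.98 ± 1.85 to 7.20 ± 2.31 CPM. The adjusted p of the 4-group test was 0.66 for Adcy6, 0.92 for Adcy9 and 0.81 for Adcy5. The 95% confidence intervals of the 4 contrasts stayed within -0.32 and 0.50 for Adcy6 and within -0.45 and 0.34 for Adcy9, and reached from -0.78 to 0.86 for Adcy5, the widest of the 3.

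Adrb3, the beta3 receptor and the main beta receptor of rodent brown fat, was the most abundant receptor. The gene (QNCMUSG00052905, chr8:27225776-27250616, minus strand) shares 839 bases of exon with the antisense gene Gm45470, which was not called in any contrast. Adrb3 was at 182, 104 and 157 CPM on NCD at 22 °C and at 362, 283 and 146 CPM on NCD at 4 °C. On HFD it was at 227, 269 and 271 CPM at 22 °C and at 303, 243 and 165 CPM at 4 °C. The lowest cold library on each diet was replicate 3, the 1 library of the second batch, while replicates 1 and 2 on NCD were higher in the cold than any library at 22 °C. The difference with cold was 0.84 on NCD (SE 0.32, adjusted p = 0.14) and -0.11 on HFD (SE 0.32, adjusted p = 0.86), and the difference between the diets' cold effects was -0.95 (SE 0.45, interval -1.93 to 0.04, adjusted p = 0.78). The cold contrast of Adrb3 on NCD was 1.14 without NCD 4 °C replicate 3, and was then called (adjusted p = 0.035), and 0.55 without NCD 4 °C replicate 1 (adjusted p = 0.40). The 4-group test of Adrb3, with an adjusted p of 0.19, also passed without NCD 4 °C replicate 3 (adjusted p = 0.047). In the first batch alone the cold contrast of Adrb3 was 1.18 (adjusted p = 0.077) on NCD and 0.14 on HFD (adjusted p = 0.81). At 22 °C the HFD libraries were all higher than the NCD libraries, as 13% of all genes were, with a difference of 0.79 (SE 0.32, interval 0.10 to 1.49, adjusted p = 0.22) that was not called. At 4 °C the difference of Adrb3 with HFD was -0.15 (SE 0.32, adjusted p = 0.84), and 0.14 when library totals were used without TMM.

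Adra1a, an alpha1 receptor that signals by calcium, came second among the receptors and had the smallest standard errors of the 8 tested genes. Its levels (QNCMUSG00018001, chr14:66635251-66771168, plus strand) were 127, 112 and 98.7 CPM on NCD at 22 °C, 132, 121 and 133 CPM on NCD at 4 °C, 139, 124 and 124 CPM on HFD at 22 °C and 123, 112 and 104 CPM on HFD at 4 °C. The 12 libraries lay between 98.7 and 139 CPM, and only the HFD groups at 22 °C and 4 °C did not overlap, with a difference of -0.19 (SE 0.11, adjusted p = 0.30) where 30.3% of all genes had no overlap. The 95% confidence intervals of the 4 contrasts lay within -0.43 and 0.44, and the 4-group test gave an adjusted p of 0.29, which became 0.044 when library totals were used without TMM.

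Adrb1, the beta1 receptor, which predominates in heart and in precursors of brown adipocytes, was near the lower limit of detection. Its estimated counts (QNCMUSG00029739, chr19:56722199-56733113, plus strand, a coding transcript of 1 exon) were 7, 10 and 118 on NCD at 22 °C, 5, 4 and 89 on NCD at 4 °C, 11, 19 and 65 on HFD at 22 °C and 14, 10 and 60 on HFD at 4 °C. In every group the library of the second batch had the most counts, and it did so also after scaling, with 1.4 to 2.89 CPM against 0.235 to 0.993 CPM in the first batch. With batch in the fit, the second batch was 3.96-fold above the first (log2 1.98, SE 0.30, adjusted p = 0.011). A batch difference with an adjusted p under 0.05 was found for 2.03% of all genes, and 0.341% rose at least as much as Adrb1, while the adjusted p was 0.54 or more for the other 7 tested members. The difference of Adrb1 with cold over both diets was -0.52 (SE 0.62, adjusted p = 0.59) and that with HFD over both temperatures was -0.17 (SE 0.62, adjusted p = 0.89). In the first batch alone they were -0.81 (adjusted p = 0.16) and 0.88 (adjusted p = 0.17), so the difference with HFD changed its sign. Adra2a, an alpha2 receptor that inhibits cyclases (QNCMUSG00029675, chr19:54044151-54048982, plus strand), had 4, 4 and 14 counts on NCD at 22 °C and 2 to 10 counts in the other libraries, which is 0.118 to 0.343 CPM in all, too few for a test at this depth.

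**Figure D2:**
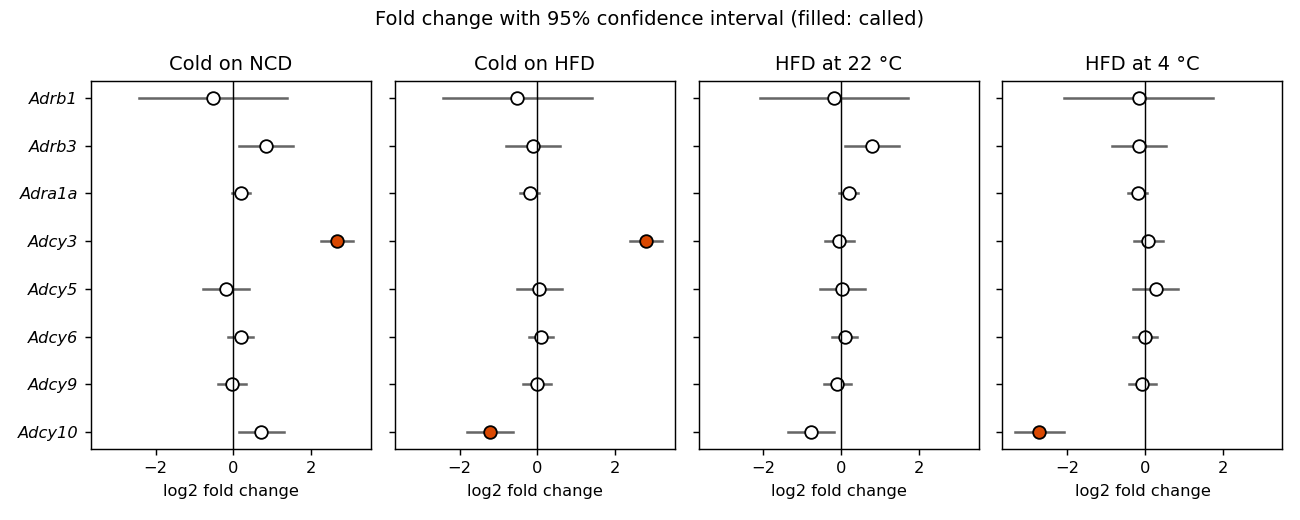
Log2 fold change (x axis) of the 8 tested genes in the 4 contrasts, with points for estimates, lines for 95% confidence intervals and filled points for called genes. Adcy3 stood near 2.7 in both cold contrasts, Adcy10 was called lower in the cold on HFD and with HFD at 4 °C, and the lines of Adrb1 were the widest.

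To compare genes with each other, counts were divided by the length of the longest coding transcript. Among the receptors, Adrb3 held 61.2% ± 5.86 of the counts per kilobase on NCD at 22 °C, 71.2% ± 11.2 on NCD at 4 °C, 70.8% ± 3.01 on HFD at 22 °C and 72.9% ± 5.0 on HFD at 4 °C (SD, n = 3). Adra1a held 31.4% ± 6.04, 24.9% ± 8.61, 23.5% ± 3.14 and 23.5% ± 3.88 in the same order. Both genes together thus made up most of the measured receptor RNA in every library, and Adrb3 was above Adra1a in each of the 12. The share of Adrb3 differed by 6.05 percentage points with cold and by 5.69 with HFD, with two-sided exact permutation tests over the libraries, within diet or temperature, giving an unadjusted p = 0.19 and p = 0.2. Without NCD 4 °C replicate 3 these differences were 9.25 and 2.48 percentage points, and without NCD 4 °C replicate 1 they were 4.09 and 7.64. Adrb1 held 0.274% to 0.522% in the group means, and Adra2a 0.0267% to 0.0678%. Of the 2 measured beta receptors, Adrb3 made up 98.3% to 99.9% of the counts per kilobase in every library.

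Among the 10 cyclases, Adcy3 and Adcy6 shared the lead at 22 °C, with 34.2 ± 2.42 and 33.5 ± 5.60 CPM per kilobase on NCD, a gap smaller than their spread. Adcy9 followed with 9.15 ± 0.557, then Adcy10 with 6.64 ± 0.565, and Adcy5 was far lower, at 0.969 ± 0.0560 CPM per kilobase. Adcy3 held 37.2% ± 1.68 of the family on NCD and 35.8% ± 1.16 on HFD at 22 °C, and 75.4% ± 3.20 on NCD and 78.2% ± 2.52 on HFD at 4 °C. Its share in the cold was 40.3 percentage points higher over both diets (two-sided exact permutation of temperature within diet, unadjusted p = 0.005, the smallest that the 400 arrangements can give). The share of Adcy6 was 36.3% ± 3.23 and 38.5% ± 1.14 at 22 °C and 13.4% ± 1.09 and 13.1% ± 1.65 at 4 °C, while its own level was not called as different. Since shares within a library add up to 100%, a higher share of 1 gene lowers those of the others. Adcy10 held 7.23% ± 0.536 on NCD and 4.29% ± 1.70 on HFD at 22 °C, and 3.94% ± 1.41 and 0.557% ± 0.135 at 4 °C. Averaged over the temperatures, its share was 3.16 percentage points lower on HFD (exact permutation of diet within temperature, unadjusted p = 0.005). The summed level of the 10 cyclases was 92.1 ± 8.75 and 92.5 ± 8.79 CPM per kilobase at 22 °C on NCD and HFD, and 287 ± 40.2 and 294 ± 49.9 at 4 °C. Without Adcy3, the sum was 57.9 ± 6.72 on NCD and 59.3 ± 4.78 on HFD at 22 °C, and in the cold it was 69.8 ± 1.4 on NCD and 63.1 ± 5.93 on HFD. The 6 receptors summed to 85.3 ± 16.4, 129 ± 37.5, 129 ± 7.86 and 115 ± 26.4 CPM per kilobase from NCD at 22 °C to HFD at 4 °C. Over both diets the cold groups had 3.15 times the cyclase sum of the groups at 22 °C. The receptor sum was higher in the cold on NCD and lower on HFD, and its mean difference over both diets of 14.9 CPM per kilobase was 6.07 without NCD 4 °C replicate 1 and 24.7 without NCD 4 °C replicate 3.

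**Figure D3:**
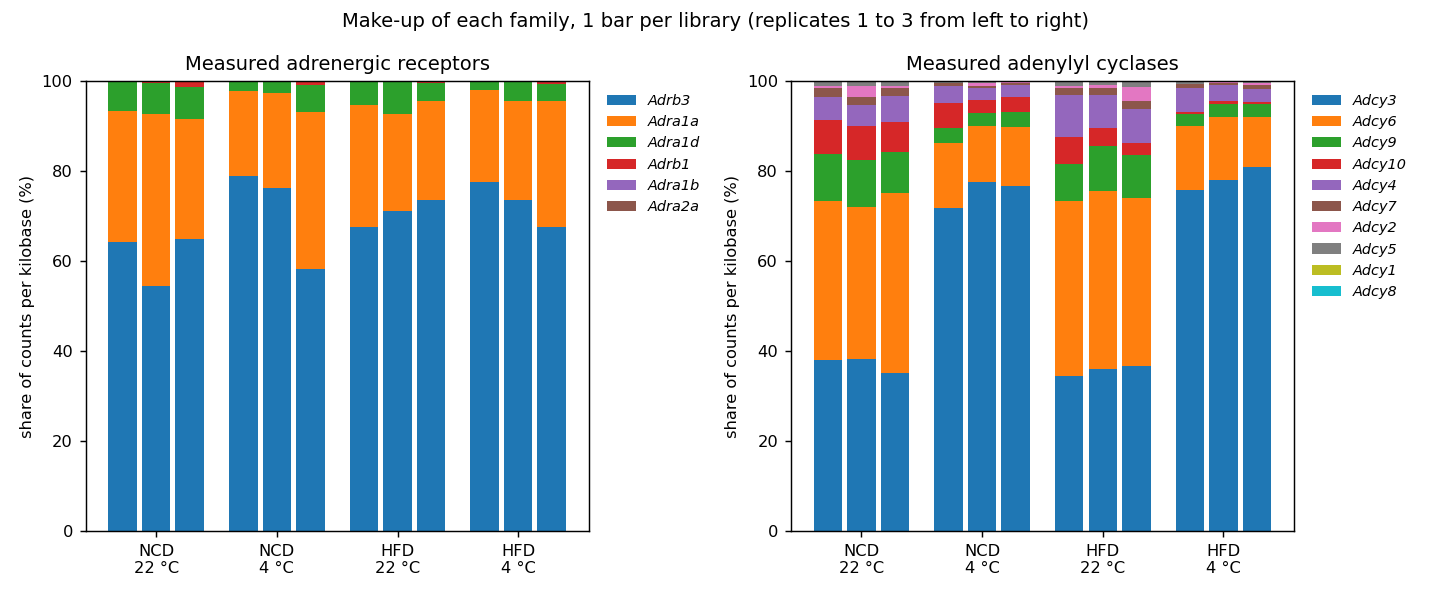
Share of the counts per kilobase (y axis, %) taken by each of 6 measured adrenergic receptors (left) and 10 measured adenylyl cyclases (right), with 1 stacked bar per library. Adcy3 took 34.5% to 38.3% of the cyclases at 22 °C and 71.7% to 80.8% at 4 °C, while Adrb3 took 54.4% to 79.0% of the receptors with no such step.

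Of the other family members, 1 receptor (Adra1d) and 4 cyclases (Adcy1, Adcy2, Adcy4 and Adcy7) passed the filter, and for cold over both diets Adra1d and Adcy4 were called, where 6.6% of all genes were called lower and 6.09% higher. Adra1d, an alpha1 receptor of vascular smooth muscle, fell in the cold by 0.73 over both diets (SE 0.21, adjusted p = 0.029), from 11 ± 1.64 to 7.65 ± 2.15 CPM on NCD and from 13.1 ± 4.21 to 6.80 ± 2.34 CPM on HFD. The call of Adra1d was lost in 7 of 12 fits that left out 1 library, with differences of -0.87 to -0.58. The 8 vascular smooth muscle and pericyte markers summed to 958 to 1396 CPM at 22 °C and 729 to 1076 CPM at 4 °C. Rgs5, Cspg4 and Des carried most of these sums, and the markers did not move together. On NCD Cspg4 was at 195, 229 and 267 CPM at 22 °C and at 165, 140 and 172 CPM at 4 °C. Tagln there went from 17.2, 17.8 and 18.6 to 26.7, 29.7 and 25.4 CPM, and Cnn1 from 2.18, 2.73 and 2.20 to 4.93, 4.65 and 4.69 CPM. Acta2, Myh11, Pdgfrb and Des overlapped between temperatures on both diets. The part of these markers in the fall of Adra1d was not tested. Adcy4, a cyclase found in endothelium, rose in the cold by 0.69 (SE 0.10, adjusted p = 9e-04), from 17.0 ± 3.29 to 30.4 ± 1.96 CPM on NCD and from 25.9 ± 0.711 to 37.7 ± 5.45 CPM on HFD. The 6 endothelial markers summed to 527 to 658 CPM on NCD and 733 to 990 CPM on HFD at 22 °C. At 4 °C they summed to 750 to 833 CPM on NCD and 978 to 1099 CPM on HFD. These markers did not move together either. Pecam1 and Kdr were higher in every cold library than at 22 °C on both diets, and Emcn on NCD only. Cdh5, Tek and Tie1 overlapped between temperatures on both diets. The part of the endothelial markers in the rise of Adcy4 was not tested. Adcy7, a cyclase of immune cells singled out here after its values were seen, was called higher on HFD in the cold than in the groups that shared its diet or its temperature, by 0.66 against HFD at 22 °C (SE 0.18, adjusted p = 0.041) and by 0.73 against NCD at 4 °C (SE 0.18, adjusted p = 0.044), with 7 leukocyte markers at 45.9 to 104 CPM in that group and 35.2 to 82.1 CPM elsewhere. The first of these calls was lost in 8 of 12 fits that left out 1 library (0.41 to 0.80) and the second in 11 of 12 (0.48 to 0.86). Adcy1 and Adcy2 were tested and not called, and Adra1b and Adcy8 did not pass the filter.

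Genes that act between the receptors and protein kinase A were read as 4 lists. None of the 11 tested G protein alpha subunits and none of the 7 kinases and arrestins that desensitise receptors was called for cold over both diets or HFD over both temperatures, where 12.7% and 7.8% of all genes were. For cold on HFD alone, 1 alpha subunit was called higher and 1 desensitisation gene lower, where 5.39% and 4.19% of all genes were. Of the 9 subunits and inhibitors of protein kinase A, 1 was called, the inhibitor Pkig, which rose by 0.67 in the cold (SE 0.18, adjusted p = 0.024), a call lost in 5 of 12 fits without 1 library (0.60 to 0.81). Of 11 tested anchoring proteins and cyclic AMP sensors, 2 rose and 2 fell in the cold. Rapgef4, an exchange factor that cyclic AMP binds, rose by 0.94 (SE 0.18, adjusted p = 0.0037), and the kinase anchor Akap12 by 0.61 (SE 0.13, adjusted p = 0.0056). The anchor Akap5 fell by 1.55 (SE 0.28, adjusted p = 0.0027) and Popdc2, a cyclic AMP binding membrane protein of muscle, by 0.78 (SE 0.18, adjusted p = 0.0093). On HFD the groups of Akap5 overlapped between temperatures. With HFD, Akap12 was higher by 0.55 (SE 0.13, adjusted p = 0.017). Without HFD 4 °C replicate 1, Akap12 differed by 0.499 with cold and 0.43 with HFD, which ended both calls, and the call with HFD was lost in 4 of 12 such fits. The median log2 difference of the 4 groups of genes in the cold was 0.12 for alpha subunits, -0.17 for desensitisation, 0.23 for protein kinase A and 0.12 for anchors and sensors, beside -0.03 for all genes.

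Receptors for other ligands also raise or lower cyclic AMP through these cyclases. Of all genes, 6.6% were called lower and 6.09% higher for cold over both diets, and 3.55% lower and 4.24% higher for HFD over both temperatures. Of 7 tested receptors that raise cyclic AMP by the stimulatory G protein, 2 fell in the cold, Sctr (secretin receptor, -1.33, SE 0.22, adjusted p = 0.0019) and Mc5r (a melanocortin receptor, -1.04, SE 0.28, adjusted p = 0.021). With HFD, Mc5r fell by 2.51 (SE 0.28, adjusted p = 0.00045), from 4.41 ± 1.15 to 0.559 ± 0.131 CPM at 22 °C, and the adenosine receptor Adora2a rose by 0.89 (SE 0.23, adjusted p = 0.028). With 1 library left out, the call of Mc5r for cold was lost in 4 of 12 fits (-1.29 to -0.92) and that of Adora2a in 7 of 12 (0.69 to 1.02). Between temperatures, the groups of Sctr overlapped on NCD and those of Mc5r on HFD. Of 6 tested receptors that lower cyclic AMP by the inhibitory G protein, 3 fell in the cold. Ptger3, a prostaglandin E receptor, fell by 1.33 (SE 0.17, adjusted p = 0.00035), from 188 ± 19.9 to 69.4 ± 22.7 CPM on NCD and from 107 ± 18.3 to 46.0 ± 11 CPM on HFD. The succinate receptor Sucnr1 fell by 1.56 (SE 0.31, adjusted p = 0.0050) and the adenosine receptor Adora1 by 0.55 (SE 0.14, adjusted p = 0.016). The call of Adora1 was lost without NCD 22 °C replicate 1 (-0.46), HFD 22 °C replicate 1 (-0.46) or HFD 4 °C replicate 3 (-0.49), and its groups overlapped on HFD. S1pr1, a sphingosine phosphate receptor of endothelium, rose by 0.66 in the cold (SE 0.10, adjusted p = 0.0013). With HFD, Ptger3 fell by 0.70 (SE 0.17, adjusted p = 0.020) and the cannabinoid receptor Cnr1 rose by 1.56 (SE 0.35, adjusted p = 0.015). In the first batch alone neither was called with HFD (Ptger3 -0.48, adjusted p = 0.16, and Cnr1 1.25, adjusted p = 0.081), and with library totals in place of TMM Ptger3 was at -0.46 and not called. At 22 °C the groups of Cnr1 overlapped between the diets. Of 10 genes listed for sympathetic nerve, 1 passed the filter and was not called. The defining enzymes and transporter Th, Dbh and Slc6a2 with Npy summed to 0 to 0.530 CPM. The nerve supply of the tissue was not tested.

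**Figure D4:**
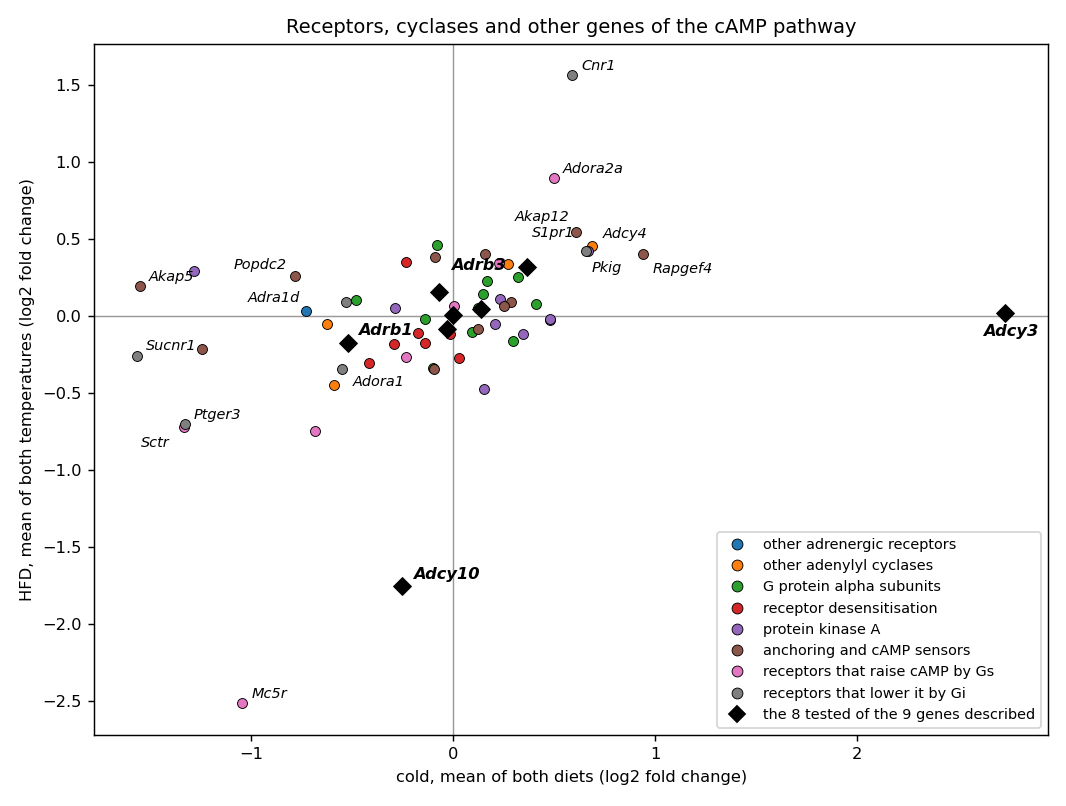
Log2 fold change with cold (x axis, mean of both diets) against that with HFD (y axis, mean of both temperatures) for the 8 tested genes described here (diamonds) and the tested genes of 8 lists of the cyclic AMP pathway (circles, 1 colour a list). Both axes share control libraries, so the plot shows values and no correlation. Adcy3 lay far to the right at 2.73 and 0.02, Adcy10 low at -0.25 and -1.75, and Mc5r lowest at -1.04 and -2.51.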

How the data were processed

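Interscapular brown fat was profiled by total RNA-seq (TruSeq libraries) in 12 libraries, grouped by the diet and temperature in the labels. The authors trimmed reads with cutadapt, quantified them with salmon on GRCm38 annotation and deposited estimated counts per gene, not normalized, here whole numbers. Whether strand was used is not given in the sources used here. The deposited counts were filtered (filterByExpr, minimum count 10), scaled by TMM and fitted with edgeR 4.0.16 in R 4.3.3 as 4 group means, and p-values were adjusted by Benjamini-Hochberg over 16737 genes. These p-values set the differences between groups against the spread between these libraries. DESeq2 1.42.0 served as an alternative. For shares, counts were divided by the longest coding transcript of GENCODE on GRCm38, and two-sided exact permutation tests were left unadjusted over 6 receptor and 10 cyclase shares. Summed family levels are given without a test. The fit was tested on simulated counts.

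The genes, lists and tests were chosen with earlier results of these data known. Text names all 9 genes, list genes called for cold over both diets or HFD over both temperatures (up to 6 a list), 4 reference genes, and the 3 genes most alike to each member that differed across the groups. Same-numbered libraries at 22 °C and 4 °C deviated together within each diet (r 0.155 to 0.456 in 6 of 6 pairs), though the labels name no source of pairing. The main fits and the permutation tests did not pair libraries, and fits with a term for the replicate number (replicate block) served as alternatives. The number is tied to the batch, and within the first batch the difference of replicates 1 and 2 correlated between temperatures with r 0.375 on NCD and 0.0534 on HFD. Across diets r was -0.214 to 0.365, and they were not taken as paired.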

Additional observations from a re-analysis of the deposited data

Results flagged for a closer look

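Adcy10 was flagged by the order of its libraries, with estimated effects of cold that went opposite ways on the 2 diets. Every cold library was higher than every library at 22 °C on NCD, a difference that was not called, and every one was lower on HFD. The difference between the 2 effects was -1.94 on the log2 scale (SE 0.38), with an unadjusted p = 0.00032 and an adjusted p = 0.30 by edgeR, so it did not pass over all genes. Leaving out 1 library at a time gave -2.21 to -1.67.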

How the results depend on the processing

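Of 140 values of the 6 calls on the 8 tested genes in the 7 contrasts, the 4-group test not counted, under alternatives, 0 changed sign and 5 lost the call, all of them Adcy10 for cold on HFD. Of 1147 values that were not called, 123 changed sign, and 5 were called. In the 4-group test, Adra1a passed with library totals (adjusted p = 0.044 by edgeR) and Adrb3 without NCD 4 °C replicate 3 (adjusted p = 0.047). The cause was not tested. The number of the 8 genes called for cold on NCD was 2 in place of 1 with the 6 libraries compared alone, and 1 to 2 with 1 library left out. For cold on HFD it was 1 in place of 2 with replicates 1 and 2 alone and with the 6 libraries alone, and 1 to 2 with 1 library left out. DESeq2 called 1 in place of 0 (Adcy10) for HFD at 22 °C and 1 for the interaction, and edgeR without the filter called 1 for the interaction. With library totals in place of TMM, the difference of Adrb3 with HFD in the cold was 0.14, and that of Adrb1 with HFD 0.073. The latter was 0.22 with batch as a term and 0.88 with replicates 1 and 2 alone. Replicates 1 and 2 alone gave 0.14 for Adrb3 with cold on HFD and -0.021 for Adcy3 with HFD. Leaving out 1 library gave -1.42 to 0.20 for Adrb1 with cold, -0.52 to 0.73 for Adrb1 with HFD, -0.30 to 0.10 for Adrb3 with cold on HFD, -0.45 to 0.13 for Adrb3 with HFD in the cold, -0.069 to 0.097 for Adcy3 with HFD, and -0.168 to 1.36 percentage points for the share of Adcy3 with HFD. In CPM without division by length, the summed difference was 982 for the cyclases with cold, 43.9 for the receptors with cold and 41.8 for the receptors with HFD, and with library totals that of the cyclases with HFD was 39.3 CPM per kilobase.

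With a replicate block for the same-numbered libraries within each diet, Adcy10 differed by -1.20 with cold on HFD (adjusted p = 0.022 by edgeR) and Adcy3 by 2.65 on NCD and 2.78 on HFD, and no call on the 8 genes changed. With a replicate block over all libraries, the difference of Adrb1 with HFD was 0.21.

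Over all genes, DESeq2 called 823 in place of 349 for HFD at 22 °C, 1319 in place of 795 for HFD at 4 °C and 58 in place of 0 for the interaction. For the interaction, edgeR called 27 without the filter, 10 with a skeletal muscle term, and 1 and 2 with the replicate blocks. Without a minimum fold change it called 3539 in place of 2123 for cold and 2262 in place of 1305 for HFD. With the 6 libraries alone it called 855 in place of 1603 for cold on HFD and 149 in place of 795 for HFD at 4 °C. With replicates 1 and 2 alone it called 1400 in place of 4067 across groups, 352 in place of 1049 and 416 in place of 1603 for cold on NCD and HFD, 42 in place of 349 and 53 in place of 795 for HFD at 22 °C and 4 °C, and 539 in place of 1305 for HFD over both. Library totals without TMM moved the median of all genes by 0.18 for HFD at 22 °C, 0.30 at 4 °C, 0.24 over both and 0.10 for cold on HFD. The share of calls that were higher then went from 47.6% to 83.2%, from 43.4% to 90.4%, from 54.4% to 89.2% and from 56.3% to 71%, and the counts of the first 3 were 791, 2443 and 2959. With 1 library left out, edgeR called 490 to 1112 genes for cold on NCD, 1013 to 1672 for cold on HFD, 117 to 369 for HFD at 22 °C, 239 to 992 for HFD at 4 °C and 0 to 22 for the interaction. The alternatives for Adcy7, Cenpo, Ucp1, Dio2, Ppargc1a and Elovl3 were chosen after seeing the data.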

Other observations

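Over the 12 libraries and 14224 genes, the log2 CPM of Adcy3 was most like that of Thoc6 (Pearson r 0.985), Tmed5 (0.984) and Gpat4 (0.984), a description with no test, since the libraries share the 4 groups. Thoc6, of the mRNA export complex, stood at group means of 12.3, 26.3, 13.2 and 27.9 CPM from NCD at 22 °C and 4 °C to HFD at 22 °C and 4 °C. Gpat4, a glycerol phosphate acyltransferase of triglyceride synthesis, stood at 266, 609, 239 and 536 CPM in that order.

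The log2 CPM of Adcy10 was most like that of Acot11 (r 0.975), Ttc25 (0.973) and Eno1 (0.965). Acot11, a thioesterase of brown fat, stood at group means of 1446, 2166, 1187 and 784 CPM in the same order, Ttc25 at 44.5, 106, 15.3 and 2.19 CPM, and the glycolytic enzyme Eno1 at 4377, 4936, 3300 and 1932 CPM. Each of these 3 genes was highest on NCD in the cold and lowest on HFD in the cold, as Adcy10 was. They were picked for their likeness to Adcy10 in these libraries, so a shared order follows from the choice.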
